A study of Mus musculus with 25 samples.

Results

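Death ligands, their receptors and the caspase switch beneath them were followed as 9 genes in 25 mouse melanomas. The genes were Fasl, Tnf and Tnfsf10 (ligands), Fas, Tnfrsf1a, Tnfrsf1b and Tnfrsf10b (receptors), and Casp8 and Cflar (the initiator caspase and its regulator). They were chosen by gene symbol, with no measured value in the rule, and all 9 were found among the 55450 genes of the count table. All 9 were also among the 18031 genes that passed the low-count filter and were tested.

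Every tumour was grown from the B2905 line, also named M4, in C57BL/6 mice, so the tumours share 1 cell line. Of 40 implanted mice, 30 received anti-CTLA-4, an antibody against an inhibitory receptor of T cells, and 5 received the isotype control IgG2b, an antibody of the same class without that target. Both were given at 10 mg/kg from a mean tumour size of 75 mm3, with 2 doses a week for 2 weeks, and 5 more mice had no treatment and are not analysed here. RNA was sequenced from 20 anti-CTLA-4 tumours and 5 IgG2b tumours, called controls below. The 20 were sorted by growth 10 to 11 days after the last dose into 8 responders (shrinking), 6 stable tumours (keeping their size) and 6 non-responders (growing). The outcome groups were thus defined after treatment, and only the comparison of all anti-CTLA-4 tumours with controls is by antibody given alone. It covers 20 of the 30 anti-CTLA-4 mice, and its fold changes weight the outcome groups equally, whatever their number of tumours. It is therefore not an estimate for the whole treatment arm. The 4 comparisons with controls share the same 5 control tumours.

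Fas ligand, tumour necrosis factor and TRAIL (Tnfsf10) belong to one cytokine family and are made mainly by activated T cells, NK cells and macrophages. They bind trimeric receptors on other cells, and the death domain of Fas, TNF receptor 1 or the TRAIL receptor gathers adaptors that bring caspase-8 molecules together so that they cleave and activate each other. The protein cFLIP, product of Cflar, enters the same complex and holds caspase-8 back, while TNF receptor 2 (Tnfrsf1b) has no death domain and signals mainly toward NF-kB. Since caspase-8 is activated by cleavage, transcript levels give the parts present and not the activity of the pathway.

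Libraries held 8.76 to 34.3 M counts. Protein-coding genes took 82.9% to 89.2% of the counts in stable tumours, non-responders and controls. In 7 of the 8 responders they took 23.8% to 74.3%, and responder 5 stood at 87.0%. The summed level of 8 T cell markers was 8.82 to 26.6 CPM in controls, 23.2 to 192 CPM in non-responders, 138 to 223 CPM in stable tumours and 84.8 to 247 CPM in responders, where CPM is counts per M after scaling of the libraries. The summed level of 7 melanocytic markers was 10504 to 17110 CPM in controls, 723 to 13868 CPM in non-responders, 227 to 504 CPM in stable tumours and 303 to 722 CPM in responders. None of the 8 T cell markers or of the 7 melanocytic markers was at 0 in every tumour of a group. These tumours are mixtures, and in bulk samples fewer cells of a type and less RNA per cell cannot be told apart.

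Under anti-CTLA-4 the 3 ligands and their partner receptors Fas and Tnfrsf1b stood above the controls in each outcome group, whereas Casp8 and Tnfrsf10b were not called in the edgeR fit of all 25 tumours, though some other settings called them. A gene was called when its adjusted p was under 0.05 (edgeR quasi-likelihood test, two-sided, Benjamini-Hochberg over the genes tested). Against controls, all anti-CTLA-4 tumours together had 6 of the 9 genes called higher and 1 lower, where 51.1% of all genes tested were called in either direction. Responders had 5 called higher and 1 lower (65.0% of all genes), stable tumours 6 higher and 0 lower (41.8%), and non-responders 5 higher and 0 lower (13.9%). The median log2 fold change of the 9 genes was 1.49 for all anti-CTLA-4 tumours minus controls, beside 0.07 for all genes tested. Over all anti-CTLA-4 tumours Fasl was 9.12-fold, Tnf 9.03-fold, Fas 5.46-fold, Tnfsf10 4.03-fold and Tnfrsf1b 2.81-fold the level of controls, with adjusted p of at most 8.23e-05. Tnfrsf1a was 1.27-fold (log2 0.35, SE 0.11, adjusted p = 0.012), a call lost without control 1 (0.28, adjusted p = 0.0668) and with no low-count filter (0.21, adjusted p = 0.20). The median over the 9 genes was 1.63 in responders, 2.00 in stable tumours and 0.84 in non-responders, beside 0.16, 0.02 and 0.04 for all genes. The value of 0.16 became 0.04 both with protein-coding genes only and with only the groups compared, so changes in responders against controls are best read relative to it.

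Between the outcome groups fewer of the 9 genes were called. Responders minus non-responders gave 1 gene, Tnfrsf1b, where 48.9% of all genes were called. Stable tumours minus non-responders gave 3 genes (Fas, Tnfrsf1a and Tnfrsf1b), where 14.9% were called. Responders minus stable tumours gave 1 gene, Tnfrsf1a, lower in responders, where 38.2% were called. The median log2 fold change of the 9 genes was 0.13, 0.49 and -0.36 in these comparisons, beside 0.05, -0.02 and 0.01 for all genes. The count in responders minus non-responders was 5 of the 9 genes with limma on log2(RPKM + 1), and 4 without non-responder 6. Over all genes these settings called 7362 of 15286 and 8524 of 17995.

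**Figure D1:**
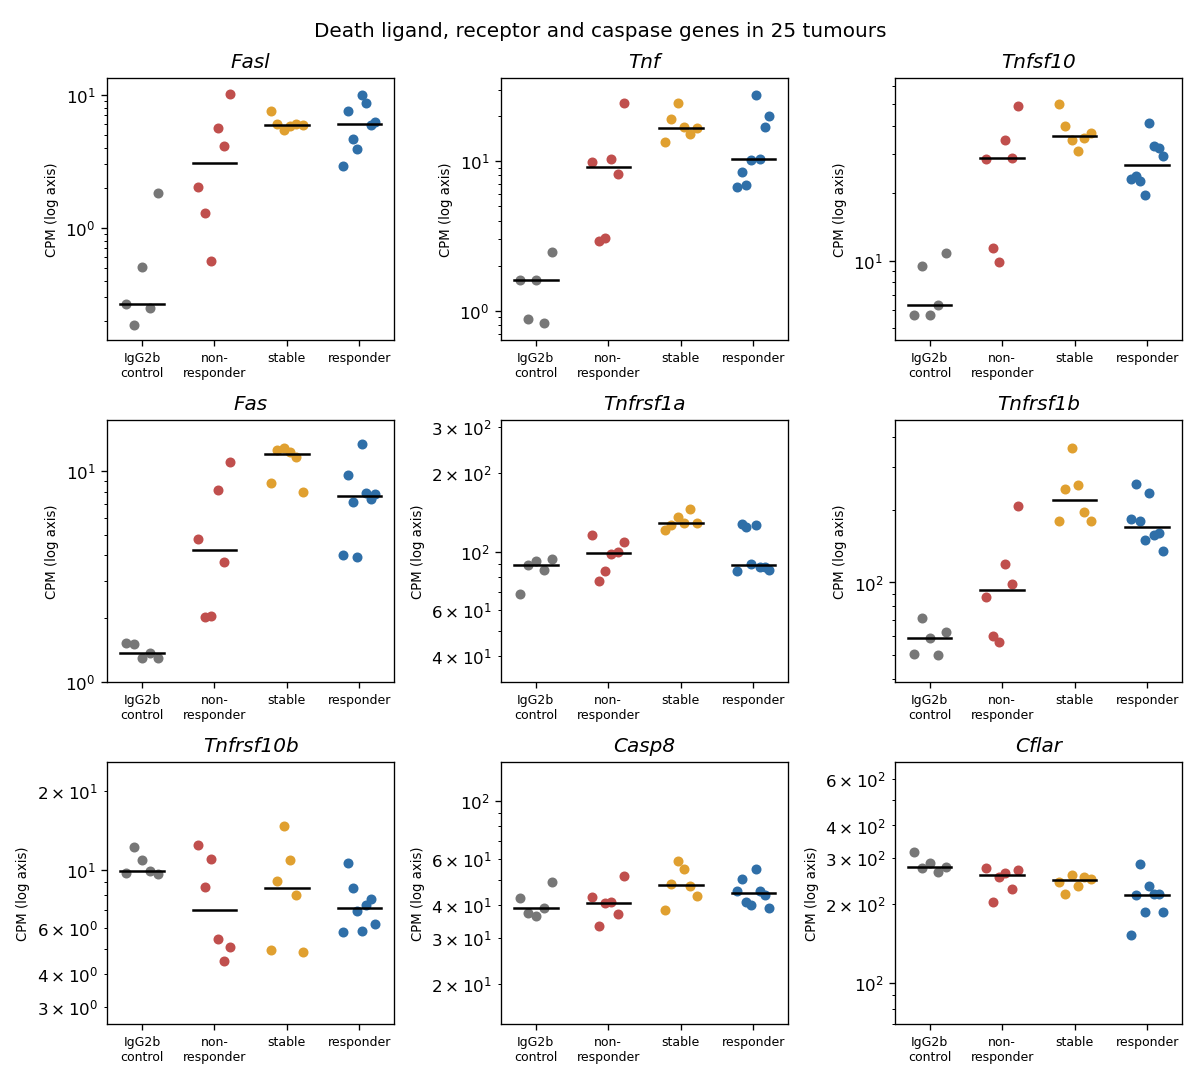
Levels of the 9 genes in 25 tumours, in CPM on a log axis; each point is 1 tumour and each line the group median. The controls lie below every responder and every stable tumour for Fasl, Tnf, Tnfsf10, Fas and Tnfrsf1b, while the groups overlap for Casp8 and Tnfrsf10b.

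Fasl, which encodes the membrane ligand of Fas used by cytotoxic lymphocytes, had the lowest level per length of the ligands in controls, at a median of 0.143 RPKM, and rose in all 3 outcome groups. The gene lies on chromosome 1 at 161780689 to 161788495, minus strand (GRCm38, GENCODE). In controls 1 to 5 it stood at 0.267, 0.184, 0.509, 0.247 and 1.81 CPM. The lowest, median and highest values were 0.559, 3.07 and 10.2 CPM in non-responders, 5.46, 5.95 and 7.53 CPM in stable tumours, and 2.90, 6.04 and 9.98 CPM in responders. Every responder and every stable tumour lay above every control, and 4 of 6 non-responders did.

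The level of Fasl was 10.7-fold that of controls in responders (log2 fold change 3.42, SE 0.61, adjusted p = 4.61e-05). It was 10.4-fold in stable tumours (3.38, SE 0.62, adjusted p = 0.000118) and 6.80-fold in non-responders (2.77, SE 0.61, adjusted p = 0.00338). The highest control was control 5, which also had the highest T cell marker sum of the controls (26.6 CPM). Without control 5 the log2 fold changes were 4.35, 4.32 and 3.71. With only the 2 groups compared in the fit, the non-responder value was 2.74 and was no longer called (adjusted p = 0.0562).

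Tnf, the gene of the secreted and membrane-bound cytokine tumour necrosis factor, separated treated tumours from controls without overlap. Its locus is chromosome 17, 35199381 to 35202007, minus strand. Tnf stood in controls 1 to 5 at 1.60, 0.884, 1.60, 0.822 and 2.48 CPM. Non-responders had 2.94, 9.05 and 24.5 CPM (lowest, median, highest), stable tumours 13.5, 16.7 and 24.5 CPM, and responders 6.70, 10.2 and 27.4 CPM. All 20 anti-CTLA-4 tumours exceeded the highest control.

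The increase over controls was 9.18-fold in responders (log2 3.20, SE 0.49, adjusted p = 7.5e-06), 12.0-fold in stable tumours (3.58, SE 0.51, adjusted p = 6.25e-06) and 6.69-fold in non-responders (2.74, SE 0.49, adjusted p = 0.000749). Stable tumours had the highest median. Neither the difference of responders from stable tumours (log2 -0.39, SE 0.39, adjusted p = 0.445) nor that from non-responders (0.46, SE 0.40, adjusted p = 0.346) passed the test. Without non-responder 6, Tnf was called higher than in non-responders both in responders (0.98, adjusted p = 0.0347) and in stable tumours (1.36, adjusted p = 0.0146).

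Tnfsf10 encodes TRAIL, a ligand induced by interferons in many immune cells. Its level per length had a median of 6.35 RPKM (reads scaled by gene length and library size) over the 25 tumours, beside 5.40 RPKM for Tnf and 2.22 RPKM for Fasl. By group the order of the first pair changed: the median of Tnf was above that of Tnfsf10 in responders (6.33 and 6.21 RPKM) and in stable tumours (8.14 and 7.22 RPKM), with overlapping ranges. Controls 1 to 5 had 5.73, 9.51, 5.75, 6.33 and 10.9 CPM. Non-responders spread from 9.88 to 49.2 CPM around a median of 28.6 CPM, stable tumours from 31.0 to 50.1 CPM around 36.2 CPM, and responders from 19.7 to 41.3 CPM around 26.7 CPM. Of the 20 treated tumours, 19 exceeded every control.

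Tnfsf10 was 3.69-fold higher in responders than in controls (log2 1.88, SE 0.31, adjusted p = 1.48e-05), 4.98-fold in stable tumours (2.32, SE 0.32, adjusted p = 4.92e-06) and 3.55-fold in non-responders (1.83, SE 0.32, adjusted p = 0.000627). Between responders and non-responders the log2 difference was 0.05 (SE 0.27, adjusted p = 0.877). The gene lies on chromosome 3 at 27317028 to 27342427, plus strand.

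The ligands rose together with markers of several immune cell types and of fibroblasts. All 8 T cell markers were called higher than in controls in each of the 3 outcome groups, with median log2 fold changes of 3.30 in responders, 3.67 in stable tumours and 2.72 in non-responders. Of 4 NK cell markers, 3 were called higher in responders, 4 in stable tumours and 3 in non-responders, and of 6 macrophage and monocyte markers 5, 6 and 4 were. In the same order 4, 2 and 1 of 4 neutrophil markers, 4, 4 and 2 of 4 B cell markers and 3, 4 and 3 of 4 fibroblast markers were higher. Of the endothelial and melanocytic markers 0 were called higher in any outcome group. Over all genes 36.1%, 22.2% and 10.6% were called higher. The part of any cell type in the ligand levels was not tested beyond a ratio of Fasl to T cell markers within each tumour. This was the log2 level of Fasl minus the mean log2 level of Cd3d, Cd3e and Cd3g. That ratio was -1.17 ± 0.225 in responders (SD, n = 8), -1.43 ± 0.181 in stable tumours (SD, n = 6), -1.32 ± 0.355 in non-responders (SD, n = 6) and -1.34 ± 0.717 in controls (SD, n = 5).

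The Fasl ratio passed the adjusted threshold in 0 of its 7 comparisons (two-sided exact permutation tests, adjusted over 21 tests of 3 ratios). The nearest was responders minus stable tumours, at 0.25 (exact p = 0.0413, adjusted p = 0.0758), the only 1 of the 7 with an unadjusted exact p under 0.05. On log2(RPKM + 1) values, where low levels are compressed, the ratio was lower in treated tumours than in controls, by -0.86 for all anti-CTLA-4 tumours (adjusted p = 0.00158, exact permutation). It passed there in each outcome group minus controls too (adjusted p of at most 0.0151, exact permutation). In the same exact tests it passed in responders minus stable tumours (0.30, adjusted p = 0.0151) and stable tumours minus non-responders (-0.42, adjusted p = 0.0227). Responders minus non-responders did not pass on that scale (-0.12, adjusted p = 0.411, exact permutation). Without control 2 the value for all anti-CTLA-4 tumours was -0.25 (adjusted p = 0.16, exact permutation) on the first scale. For stable tumours minus controls the ratio was negative on both scales, at -0.09 and -1.10.

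**Figure D2:**
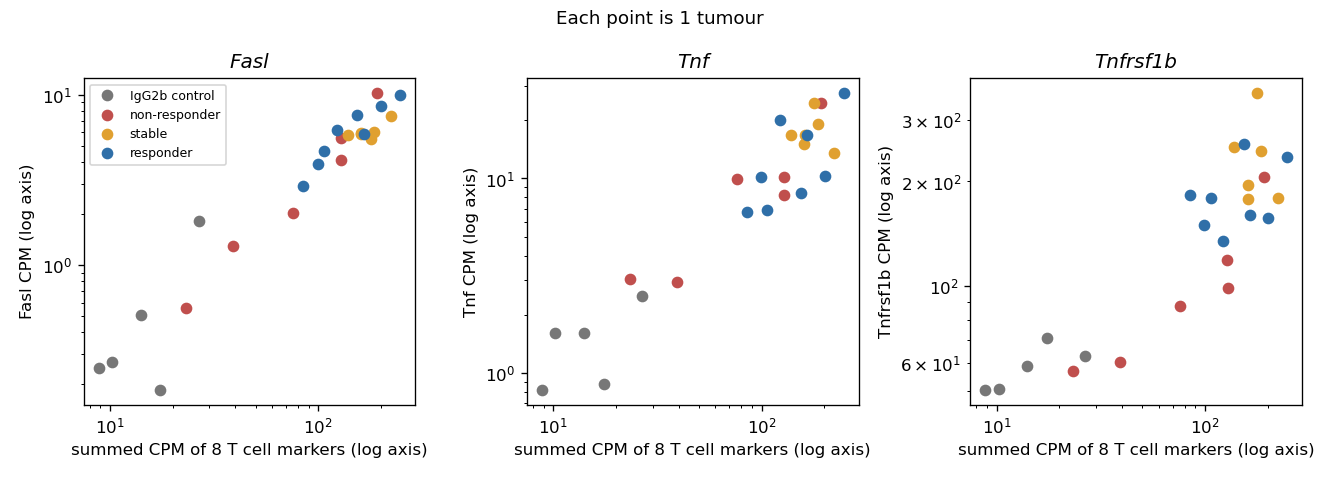
Levels of Fasl, Tnf and Tnfrsf1b against the summed level of 8 T cell markers in each of 25 tumours, in CPM on log axes; colours give the group. Controls lie at the lower left with sums up to 26.6 CPM, non-responders span 23.2 to 192 CPM, and responders and stable tumours lie at 84.8 CPM and above.

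Fas, the receptor of Fas ligand, had the highest fold change over controls of the 4 receptors in each outcome group. Its locus is chromosome 19, 34290666 to 34327772, plus strand, where a small RNA gene (Gm27818) overlaps it on the same strand. The 5 controls, in order, had 1.53, 1.51, 1.29, 1.37 and 1.29 CPM. Non-responders had 2.03, 4.24 and 11.1 CPM (lowest, median, highest), stable tumours 7.96, 12.0 and 12.8 CPM, and responders 3.91, 7.61 and 13.4 CPM. All 20 treated tumours exceeded every control, and 6 of the 8 responders lay below every stable tumour.

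Fas was 5.48-fold higher than in controls in responders (log2 2.45, SE 0.37, adjusted p = 6.64e-06), 7.85-fold in stable tumours (2.97, SE 0.39, adjusted p = 2.76e-06) and 3.78-fold in non-responders (1.92, SE 0.37, adjusted p = 0.00135). Stable tumours stood 2.07-fold above non-responders (1.05, SE 0.34, adjusted p = 0.037). That last call was lost when any of non-responders 1, 2, 3 or 5 or stable tumours 2, 3, 4 or 5 was left out, with log2 fold changes of 0.88 to 1.04 and adjusted p of 0.0566 to 0.0915. Responders minus non-responders (0.54, SE 0.32, adjusted p = 0.162) became a call without non-responder 6 (0.89, adjusted p = 0.0197).

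Because the receptors Fas and Tnfrsf1b moved with the ligands, the 250 bases before their RefSeq transcription starts (GRCm38.p6) are shown for reference, 5′ to 3′ on the strand of the gene. Capitals mark matches, on either strand, to TTCNNNGAA (the STAT site known as GAS) or GAAANNGAA (the core of the interferon response element). The first window is chr19:34290409-34290658, plus strand, and the second chr4:145246871-145247120, minus strand.
Fas: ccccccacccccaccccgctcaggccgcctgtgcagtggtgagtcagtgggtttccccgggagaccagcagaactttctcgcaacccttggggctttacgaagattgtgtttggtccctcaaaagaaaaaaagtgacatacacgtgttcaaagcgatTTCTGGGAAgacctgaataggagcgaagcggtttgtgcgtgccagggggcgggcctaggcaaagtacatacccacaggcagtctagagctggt
Tnfrsf1b: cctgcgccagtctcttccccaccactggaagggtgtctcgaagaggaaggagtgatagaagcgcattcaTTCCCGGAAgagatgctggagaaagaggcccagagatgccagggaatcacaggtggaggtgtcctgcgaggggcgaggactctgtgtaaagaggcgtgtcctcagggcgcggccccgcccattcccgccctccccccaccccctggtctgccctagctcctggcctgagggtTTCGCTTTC
The Fas window holds a GAS match beginning 93 bases before the start, and the Tnfrsf1b window holds a GAS match at 181 bases and an interferon element core at 9 bases. Of 32851 RefSeq windows of the same length, 7.02% held the first motif and 7.13% the second. One more motif, GGNNTTTCC (an NF-kB core), had no match in the windows of the members and was held by 4.93% of all windows. Of the 9 genes 8 had a window, and 3 of these held any match, the other being Tnfrsf1a with a GAS match 244 bases before its start. A match is a string of letters and not a measured binding site.

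Tnfrsf1a encodes TNF receptor 1, the death domain receptor of TNF that is present on most cell types. Its median per length over all tumours was 35.6 RPKM. The gene is on chromosome 6 at 125349362 to 125362484, plus strand. In controls 1 to 5 it stood at 68.9, 89.1, 91.9, 85.1 and 93.6 CPM. Non-responders had 77.3, 98.7 and 116 CPM (lowest, median, highest), stable tumours 121, 129 and 146 CPM, and responders 84.6, 88.8 and 128 CPM. All 6 stable tumours exceeded every non-responder and every control. Responders 2, 3 and 5 lay at 125 to 128 CPM and the other 5 at 84.6 to 89.9 CPM.

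In stable tumours Tnfrsf1a was 1.53-fold the level of controls (log2 0.61, SE 0.13, adjusted p = 0.000623) and 1.35-fold that of non-responders (0.43, SE 0.13, adjusted p = 0.0242). The call against non-responders was lost without non-responder 2 (adjusted p = 0.0713), non-responder 3 (0.0645) or stable tumour 3 (0.0522), and with no low-count filter (0.0866). In responders it was lower than in stable tumours (-0.36, SE 0.12, adjusted p = 0.0187), and in 5 of 8 responders it lay below every stable tumour. This call was lost after adjustment for the protein-coding share of the libraries (-0.17, adjusted p = 0.588) and in the 23 tumours with a share of at least 60% (-0.31, adjusted p = 0.0789). Against controls, responders stood at 0.25 (SE 0.12, adjusted p = 0.0847), a value called after the same adjustment (0.45, adjusted p = 0.0125). Of 6 macrophage and monocyte markers, 3 were called lower in responders than in stable tumours, with summed levels of 577 to 1647 CPM and 1155 to 1987 CPM. Over all genes 38.2% were called in this comparison and 17.8% were lower. After adjustment for the protein-coding share 0 of 18031 genes were called in it. The part of macrophages and monocytes in the Tnfrsf1a difference was not tested.

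Tnfrsf1b, which encodes TNF receptor 2, a receptor prominent on regulatory T cells and myeloid cells, was the only gene of the 9 called in responders minus non-responders. The gene is on chromosome 4 at 145213463 to 145246870, minus strand. Its level in controls 1 to 5 was 50.7, 71.0, 58.8, 50.3 and 62.8 CPM. Non-responders had 56.8, 93.2 and 207 CPM (lowest, median, highest), stable tumours 179, 220 and 359 CPM, and responders 135, 170 and 256 CPM. Non-responder 6, at 207 CPM, was the only non-responder within the ranges of responders and stable tumours.

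The mean of Tnfrsf1b was 182 ± 42.5 CPM in responders (SD, n = 8) and 105 ± 55.1 CPM in non-responders (SD, n = 6), a 1.73-fold difference (log2 0.79, SE 0.23, adjusted p = 0.00842). It stayed called when each tumour was left out in turn, with log2 fold changes of 0.67 to 1.11 and adjusted p up to 0.0262. Under the 9 other settings it was also called, with 0.72 to 0.93 and adjusted p up to 0.0498. Summed levels of 4 neutrophil markers were 27.0 to 66.9 CPM in responders and 3.14 to 29.5 CPM in non-responders, with 2 of the 4 called higher. Those of 6 macrophage and monocyte markers were 577 to 1647 and 434 to 1234 CPM, with 0 called higher and 0 lower. Over all genes 25.2% were called higher and 23.8% lower. The part of neutrophils, macrophages and monocytes in the Tnfrsf1b difference was not tested. Stable tumours exceeded non-responders 2.24-fold (1.16, SE 0.25, adjusted p = 0.00486). Against controls the differences were 3.10-fold in responders (1.63, SE 0.26, adjusted p = 1.17e-05), 4.00-fold in stable tumours (2.00, SE 0.27, adjusted p = 4.18e-06) and 1.79-fold in non-responders (0.84, SE 0.26, adjusted p = 0.0341). The last was lost without any of controls 1, 3, 4 or 5 or non-responders 4, 5 or 6, and without non-responder 6 it was 0.53 (adjusted p = 0.13).

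The balance of the TNF receptors was also compared within libraries. The log2 ratio of Tnfrsf1b to Tnfrsf1a, which library scaling does not change, was -0.55 ± 0.168 in controls (SD, n = 5), -0.02 ± 0.557 in non-responders (SD, n = 6), 0.80 ± 0.380 in stable tumours (SD, n = 6) and 0.83 ± 0.188 in responders (SD, n = 8). In controls 1 to 5 it was -0.44, -0.33, -0.64, -0.76 and -0.58. Every responder and every stable tumour lay above every control. Among non-responders the ratio spanned -0.57 to 0.93, and non-responder 6 alone lay within the responder range of 0.52 to 1.11.

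Responders exceeded non-responders in this ratio by 0.85 (exact permutation p = 0.00533, adjusted p = 0.0186) and stable tumours exceeded them by 0.82 (exact p = 0.0173, adjusted p = 0.0404). Over all anti-CTLA-4 tumours it was 1.11 above controls (exact p = 0.000376, adjusted p = 0.00791). Against controls it was higher by 1.38 in responders (exact p = 0.00155, adjusted p = 0.0113) and by 1.35 in stable tumours (exact p = 0.00433, adjusted p = 0.0186). In non-responders the difference of 0.53 did not pass after adjustment (exact p = 0.0433, adjusted p = 0.0758). Responders and stable tumours differed by 0.03 (exact p = 0.843, adjusted p = 0.885). The call of stable tumours against non-responders was lost without any of non-responders 1 to 5 or stable tumours 2 to 5, with adjusted p of 0.0519 to 0.0831 in these exact tests.

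Tnfrsf10b, the mouse death receptor for TRAIL, did not follow its ligand. The gene is on chromosome 14 at 69767472 to 69784411, plus strand. Controls 1 to 5 had 9.70, 12.3, 10.9, 9.92 and 9.62 CPM. Non-responders had 4.49, 7.05 and 12.4 CPM (lowest, median, highest), stable tumours 4.85, 8.56 and 14.7 CPM, and responders 5.80, 7.17 and 10.6 CPM. The groups overlapped, although 7 of 8 responders lay below every control.

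The log2 fold change of Tnfrsf10b against controls was -0.50 in responders (SE 0.26, adjusted p = 0.0898), -0.26 in stable tumours (95% interval -0.79 to 0.28, adjusted p = 0.482) and -0.42 in non-responders (-0.95 to 0.11, adjusted p = 0.319). Intervals are normal intervals from the SE. Between responders and non-responders the difference was -0.08 (-0.56 to 0.40, adjusted p = 0.801). With only responders and controls in the fit the value was -0.60 and passed (adjusted p = 0.00464), and with no low-count filter it was -0.69 (adjusted p = 0.0323).

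**Figure D3:**
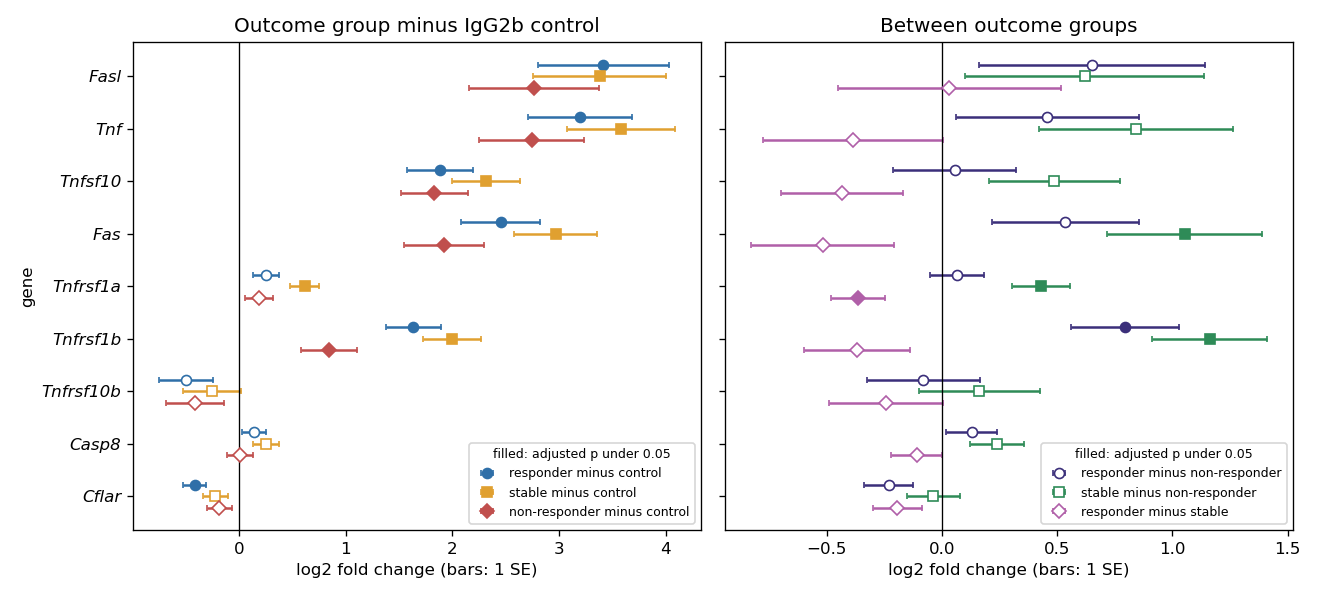
Log2 fold change of each of the 9 genes, with bars of 1 SE, for each outcome group minus controls (left) and between outcome groups (right); filled symbols passed an adjusted p of 0.05. Against controls the ligands, Fas and Tnfrsf1b lie right of 0 in all 3 outcome groups, and between outcome groups the filled symbols are Tnfrsf1b, Fas and Tnfrsf1a.

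Casp8, the initiator caspase of the death receptor complex, kept a narrow range. Its locus is chromosome 1, 58795374 to 58847503, plus strand. Controls 1 to 5 had 42.5, 37.4, 36.2, 38.8 and 48.9 CPM. Non-responders had 33.3, 40.9 and 51.5 CPM (lowest, median, highest), stable tumours 38.2, 47.7 and 59.0 CPM, and responders 38.8, 44.4 and 54.7 CPM. Every pair of groups overlapped.

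The log2 fold change of Casp8 against controls was 0.14 in responders (95% interval -0.09 to 0.37, adjusted p = 0.301), 0.25 in stable tumours (0.01 to 0.49, adjusted p = 0.109) and 0.01 in non-responders (-0.23 to 0.25, adjusted p = 0.971). Its direction in responders depended on the setting: 0.38 in limma on log2(RPKM + 1) (adjusted p = 0.000527), 0.27 with a stricter filter (adjusted p = 0.025) and -0.04 with no filter (adjusted p = 0.846). The counts of Casp8 were not whole numbers in 15 tumours and those of Cflar in 21, because reads matching several places had been divided by estimation, and Casp8 overlaps a second annotated gene (Gm37760).

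Cflar, the gene of the caspase-8 regulator cFLIP, was the only one of the 9 called lower than in controls. It lies 36.5 kb from Casp8 on the same strand of chromosome 1, at 58711508 to 58758884. Controls 1 to 5 had 317, 275, 289, 265 and 278 CPM. Non-responders had 205, 260 and 276 CPM (lowest, median, highest), stable tumours 219, 247 and 259 CPM, and responders 153, 218 and 285 CPM. Of the 20 treated tumours 17 lay below every control, among them 7 of 8 responders and all 6 stable tumours.

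In responders Cflar was lower than in controls, at 213 ± 39.1 CPM (SD, n = 8) against 285 ± 19.7 CPM (SD, n = 5), which is -0.42 on the log2 scale (SE 0.11, adjusted p = 0.00212). Over all anti-CTLA-4 tumours it was lower by -0.28 (SE 0.10, adjusted p = 0.0196). Stable tumours stood at -0.23 (SE 0.12, adjusted p = 0.134), a difference called in 4 of 9 other settings (DESeq2 0.0306, limma 0.0236, no filter 0.0444 and only the groups compared 0.0299, as adjusted p), and non-responders at -0.19 (SE 0.12, adjusted p = 0.305). After adjustment for the protein-coding share the responder value was -0.16 (adjusted p = 0.262) and that of all anti-CTLA-4 tumours -0.18 (adjusted p = 0.0743), and without control 1 the latter was -0.24 (adjusted p = 0.0765). Responders minus non-responders gave -0.23 (SE 0.11, adjusted p = 0.0732), called in 3 of 9 other settings. These were DESeq2 (-0.23, adjusted p = 0.0367), limma (-0.22, adjusted p = 0.0417) and no filter (-0.32, adjusted p = 0.0491). The difference was also called without non-responder 2 (adjusted p = 0.0392) or responder 3 (adjusted p = 0.0130). After adjustment for the protein-coding share it was 0.01 (adjusted p = 0.968). Lowest of all tumours was responder 1, at 153 CPM, whose protein-coding share of 23.8% was also the lowest.

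The ratio of the regulator to the caspase was lower in responders and stable tumours than in controls. The log2 ratio of Cflar to Casp8 was 2.81 ± 0.186 in controls (SD, n = 5), 2.61 ± 0.107 in non-responders (SD, n = 6), 2.34 ± 0.237 in stable tumours (SD, n = 6) and 2.23 ± 0.289 in responders (SD, n = 8). In controls 1 to 5 it was 2.89, 2.88, 2.99, 2.77 and 2.51. The responders ranged from 1.75 to 2.79, and 7 of 8 lay below every non-responder and every control, the exception being responder 3. The lowest, 1.75, was responder 1, whose protein-coding share of 23.8% was also the lowest. The ratio was not adjusted for this share. With that adjustment the edgeR value of Cflar itself was -0.16 in responders minus controls and 0.01 in responders minus non-responders, both not called.

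All anti-CTLA-4 tumours lay below controls by -0.43 (exact permutation p = 0.00162, adjusted p = 0.0113). Responders were lower than non-responders by -0.38 (exact permutation p = 0.012, adjusted p = 0.0341) and lower than controls by -0.58 (exact p = 0.00466, adjusted p = 0.0186). Stable tumours were lower than controls by -0.47 (exact p = 0.013, adjusted p = 0.0341). Their difference of -0.27 from non-responders (exact p = 0.0368, adjusted p = 0.0758) and that of -0.20 between non-responders and controls (exact p = 0.0606, adjusted p = 0.0979) did not pass. The call of responders against non-responders was lost without any of non-responders 1 to 5, with adjusted p of 0.0571 to 0.0746 in these exact tests. That of stable tumours against controls was lost without any of controls 1, 3 or 4 or stable tumours 2 to 5 (adjusted p 0.0571 to 0.0714, exact permutation).

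**Figure D4:**
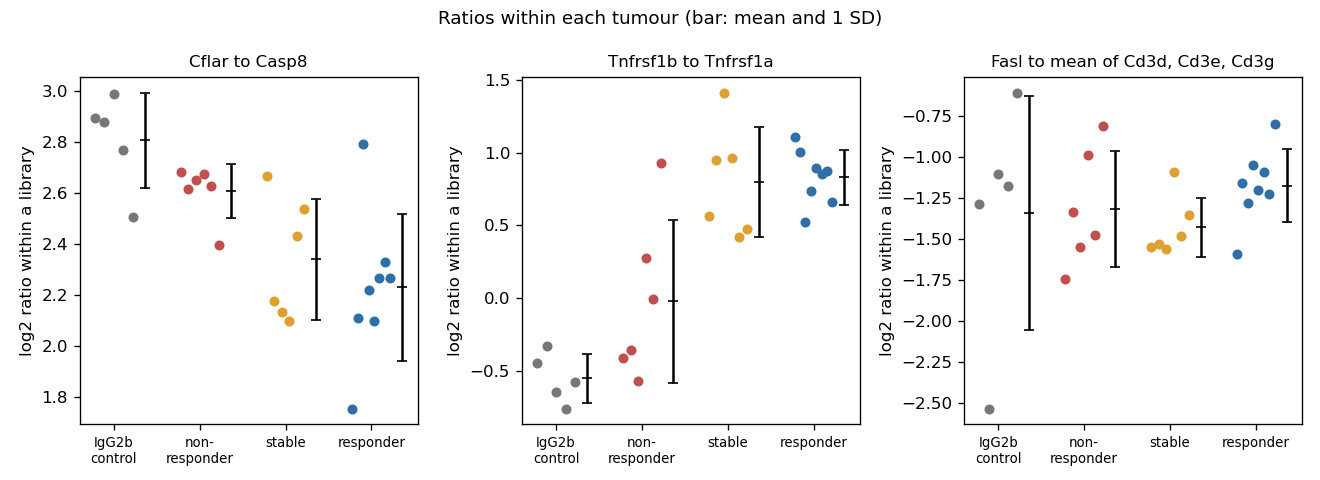
Log2 ratios within each tumour for Cflar to Casp8, Tnfrsf1b to Tnfrsf1a, and Fasl to the mean of 3 T cell markers; points are tumours, and bars show the group mean and 1 SD. The Cflar ratio falls from a mean of 2.81 in controls to 2.23 in responders, the receptor ratio runs from -0.55 to 0.83, and the Fasl ratio overlaps between all groups.

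Among non-responders the 5 genes that rose in every outcome group (Fasl, Tnf, Tnfsf10, Fas and Tnfrsf1b) ranked tumours alike at both ends. The other groups showed this less, and all of it is a description without a test. Non-responder 6 was highest of its group in all 5, and non-responders 2 and 3 held the 2 lowest places in all 5. Their T cell marker sums were 192, 39.1 and 23.2 CPM, and their melanocytic marker sums were 723, 6983 and 13868 CPM. Non-responder 6 thus lay inside the responder range for each of these genes except Fasl and Tnfsf10, in which it lay above it. Responder 5 was highest among responders in 4 of the 5 and had their highest T cell sum, 247 CPM. Responder 4 was among their 2 lowest in 4 of the 5, at a T cell sum of 99.3 CPM. In stable tumours no tumour led in more than 3 of the 5, and stable tumour 1 was highest in 2 and among the 2 lowest in 3. Controls 1 and 2 were each highest of their group in 1 gene and lowest in 1. Control 5 was highest in 3 and lowest in 0, with the highest T cell sum of the controls, 26.6 CPM. Control 4 was among the 2 lowest in 3.

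Per length, the TNF receptors and Cflar had the highest medians of the 9 genes over all tumours. The median over 25 tumours was 35.6 RPKM for Tnfrsf1a, 33.9 for Tnfrsf1b, 32.0 for Cflar and 13.8 for Casp8. It was 6.35 RPKM for Tnfsf10, 5.40 for Tnf, 4.24 for Fas, 2.49 for Tnfrsf10b and 2.22 for Fasl. Order depended on the group: in controls the median was 12.4 RPKM for Tnfrsf1b and 31.0 RPKM for Tnfrsf1a, below the 37.3 RPKM of Cflar, and the ranges of the receptors (9.56 to 14.1 and 22.9 to 32.9 RPKM) did not overlap. In responders the medians were 35.3 and 35.5 RPKM, with ranges of 32.9 to 52.3 and 30.7 to 45.9 RPKM that overlapped. Fas and Fasl were 4.81 and 3.34 RPKM in responders, with overlapping ranges, and 0.727 and 0.143 RPKM in controls.

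The genes whose levels ran most alike over the 25 tumours are given as a description, since tumours of a group share their group's level and the share of immune cells. Among 13228 protein-coding genes, Fasl was closest to Ctsw (Spearman rho 0.96), Klra7 (0.94) and Cd8a (0.94), all of them genes of cytotoxic or NK lymphocytes. Tnf was closest to Icam1 (0.96), an adhesion molecule, and Tnfsf10 to Serpina3g (0.96), an interferon-induced protease inhibitor. Fas was closest to the complement gene C1s1 (0.97), and Tnfrsf1b to Ncf1 (0.98), a subunit of the phagocyte oxidase. Tnfrsf1a was closest to Gab2 (0.91), Casp8 to Gpr108 (0.88), Cflar to Ttll1 (0.88) and Tnfrsf10b to Lonrf3 (0.85).

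The rest of the pathway was followed in 5 lists of 54 genes in all, with none of the 9 genes among them. In responders minus non-responders 20 were called higher, 10 lower and 24 were not called, where 48.9% of all genes tested passed (25.2% upward and 23.8% downward). In stable tumours minus non-responders the counts were 17, 2 and 35 (14.9% of all genes called), and in non-responders minus controls 17, 0 and 37 (13.9%). All anti-CTLA-4 tumours minus controls gave 31 higher, 6 lower and 17 not called (51.1%).

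Of 11 other death receptors, ligands and decoys, 4 were called higher and 0 lower in responders than in non-responders, with a median log2 fold change of 0.25 over the list, beside 0.05 for all genes. Over all genes 48.9% were called, 25.2% upward and 23.8% downward. After adjustment for the protein-coding share the list counts stayed 4 and 0, where 1810 of 18031 genes were called (916 upward). Tnfrsf25, a death domain receptor of T cells, was 2.72 ± 0.922 CPM in responders (SD, n = 8) against 0.744 ± 0.296 CPM in non-responders (SD, n = 6), or 1.84 on the log2 scale (SE 0.32, adjusted p = 0.000183). Lta, the gene of lymphotoxin alpha, another ligand of the TNF receptors, was 4.32 ± 2.00 CPM and 1.40 ± 1.12 CPM (1.61, SE 0.43, adjusted p = 0.00421). Tnfrsf26 (1.23) and the decoy receptor Tnfrsf23 (0.97) were the others called, and reads shared between such close relatives make both uncertain. Lta lay at 0.0368 to 0.259 CPM in controls and 3.21 to 5.41 CPM in stable tumours, and these ranges did not overlap.

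Of 12 adaptors and ubiquitin enzymes that act at the receptors, 5 were called higher and 0 lower in responders than in non-responders (median 0.17). All genes gave 25.2% higher and 23.8% lower, 48.9% together. The higher calls of this list numbered 3 after adjustment for the protein-coding share, where 916 of 18031 genes were called higher. Traf1, an adaptor induced by NF-kB, was 56.6 ± 13.0 CPM against 24.1 ± 14.4 CPM (log2 1.23, SE 0.31, adjusted p = 0.0026). Rnf31, the catalytic subunit of the linear ubiquitin ligase, was 49.7 ± 11.5 CPM against 31.1 ± 8.15 CPM (0.67, SE 0.16, adjusted p = 0.00198). Birc3 (0.61), Birc2 (0.58) and Traf2 (0.30) were also called. Fadd, the adaptor that ties the receptors to caspase-8, stood at -0.19 (adjusted p = 0.171) and Ripk1 at 0.09 (adjusted p = 0.495).

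Of 11 NF-kB subunits and feedback genes, responders had 8 higher than non-responders and 1 lower (median 0.48), beside 48.9% of all genes called, and 5 higher and 0 lower with only these groups in the fit. Tnfaip3, whose product A20 shuts NF-kB signalling off, was 78.3 ± 10.6 CPM in responders against 40.4 ± 17.0 CPM in non-responders (log2 0.95, SE 0.19, adjusted p = 0.000438). Nfkbie, an inhibitor of NF-kB dimers, was 44.9 ± 8.68 CPM and 27.3 ± 15.2 CPM (0.72, SE 0.24, adjusted p = 0.0158). Map3k7, the kinase TAK1, was the gene called lower (-0.23, SE 0.08, adjusted p = 0.0185). Stable tumours against non-responders gave 8 higher and 0 lower, beside 14.9% of all genes called, with 4 higher when only these groups entered the fit and 6 with no low-count filter. After adjustment for the protein-coding share, 2 genes passed upward and 0 downward in responders minus non-responders. Over all genes that setting called 916 of 18031 higher and 894 lower.

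Of 13 caspases and mitochondrial death genes, 1 was called higher and 7 lower in responders than in non-responders (median -0.33), where 48.9% of all genes were called and 23.8% were lower. With only these groups in the fit 0 were higher and 4 lower, and without non-responder 3 the counts were 1 and 4. Cycs, which encodes cytochrome c, was 56.2 ± 26.6 CPM against 144 ± 63.3 CPM (log2 -1.35, SE 0.26, adjusted p = 0.000382), and its many processed copies in the genome make its counts uncertain. Bak1 (-0.52), Casp6 (-0.45), Bid (-0.41) and Diablo (-0.39) were among the others lower, and Bbc3, the gene of PUMA, was higher (0.51, SE 0.18, adjusted p = 0.023). After adjustment for the protein-coding share 1 was called higher and 1 lower, and in tumours with a share of at least 60% 1 higher and 4 lower. Over all genes these settings called 916 higher and 894 lower of 18031, and 3675 higher and 3422 lower of 17974. In stable tumours minus non-responders 0 of the 13 were called by edgeR in the fit of all 25 tumours, and 3 had an unadjusted p under 0.05. Other settings called some higher: 2 with DESeq2, 1 with limma on log2(RPKM + 1), 2 after adjustment for the protein-coding share, 1 with the stricter filter and 1 in tumours with a share of at least 60%. Without non-responder 4 the count was 2, and without non-responder 5 or 6 it was 1.

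Among 7 survival genes, responders had 2 called higher than non-responders and 2 called lower (median -0.04), near the 25.2% higher and 23.8% lower of all genes. Mcl1 was 307 ± 70.6 CPM against 206 ± 54.6 CPM (log2 0.57, SE 0.16, adjusted p = 0.00658), and Bcl2l1, the gene of BCL-XL, 127 ± 30.4 CPM against 90.9 ± 18.8 CPM (0.49, SE 0.18, adjusted p = 0.0308). Birc5, which encodes survivin and is expressed in dividing cells, was 9.45 ± 1.89 CPM against 21.0 ± 8.66 CPM (-1.15, SE 0.21, adjusted p = 0.000266). Xiap, the caspase inhibitor, was lower by -0.30 (SE 0.09, adjusted p = 0.0136). After adjustment for the protein-coding share 0 were called higher and 1 lower, beside 916 higher and 894 lower of 18031 genes. Alongside these lists, 7 of 7 melanocytic markers were called lower in responders than in non-responders, where 23.8% of all genes were. Of 8 T cell markers 2 were called higher, near the 25.2% of all genes. The part of either cell type in the list counts was not tested.

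**Figure D5:**
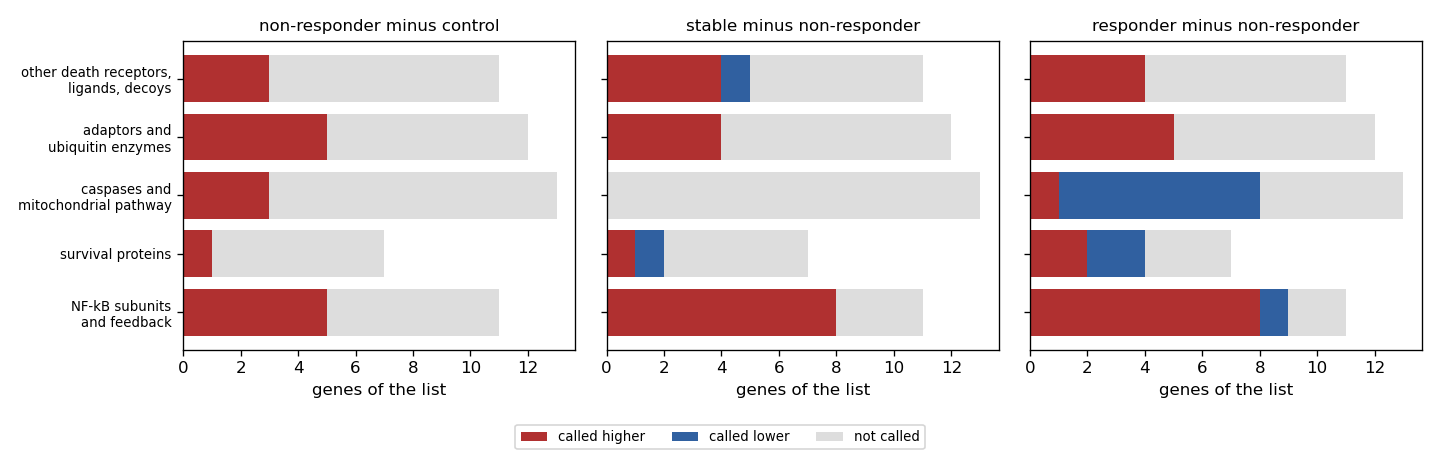
Number of genes called higher, called lower or not called in 5 lists of the death receptor pathway, for 3 comparisons; bars start at 0 and each bar's length is the size of the list. Lower calls are most frequent for caspases and mitochondrial genes in responders minus non-responders, with 7 of 13, and 0 of these 13 are called in stable tumours minus non-responders in this edgeR fit of all tumours, where other settings call up to 2.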

How the data were processed

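RNA from 25 tumours was sequenced, 1 library each. The submitters' processing notes name bcl2fastq 2.17, Trimmomatic, STAR 2.5.1, RSEM 1.2.22 and mm10. The labels name a stranded total RNA kit but polyA RNA as the molecule, which was not resolved. The authors deposited expected counts for 55450 genes (5.64% of values not whole; rounded here, although whole counts had been planned for). The authors also deposited RPKM values, by definition reads per length and library size, whose exact denominator is not given in the sources used here. All 55450 identifiers matched GENCODE for GRCm38.

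Libraries were scaled with TMM and tested with edgeR 4.0.16 (R 4.3.3, filterByExpr, 18031 genes, 4 group means, robust quasi-likelihood F tests). The fit recovered known changes in simulated data where few genes changed, which does not test the scaling of these libraries. CPM were computed from the counts, and the prior count on the log2 scale was 2. Ratios were tested by exact permutation (SciPy 1.17.1), without adjustment for the protein-coding share. The p-values set differences between groups against the variation between these tumours, which share a cell line and whose outcome groups were defined after treatment. Total counts were 8.76 to 34.3 M. Library numbers ran by group (1 to 5 control, 6 to 11 non-responder, 12 to 19 responder, 20 to 25 stable), so processing order and group cannot be told apart.

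The members and lists were chosen with earlier results of these data known. Named were the 9 genes, the called genes with the 2 highest and 2 lowest fold changes of each pathway list in responders minus non-responders, and the 3 protein-coding genes (mean of at least 1 CPM) most correlated with each member. Other list genes are named as members of their counts. Some list genes that the rule or the counts include are not reported here by name. The same values were recomputed with DESeq2 1.42.0, with RLE size factors, without a filter, with a stricter filter (1 CPM in 8 tumours, mean count 50), only the groups compared, protein-coding genes only, protein-coding share as covariate, limma 3.58.1 on log2(RPKM + 1), a prior count of 0.5 for ratios, and each tumour left out. Tumours with a protein-coding share of at least 60% were an alternative chosen after the data were seen.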

Additional observations from a re-analysis of the deposited data

Results flagged for a closer look

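Of 48 groups of values examined for a tumour standing apart (Dixon's criterion, which chance meets in about 1 of 20 groups), 2 met it. The log2 CPM of Fasl in stable tumours was 2.93 in stable tumour 1, against 2.48 to 2.61 in the other 5. That tumour also had the highest T cell marker sum of its group, 223 CPM, and the part of this in the Fasl level was not tested. The log2 ratio of Cflar to Casp8 in non-responders was 2.40 in non-responder 6, against 2.62 to 2.68 in the other 5. The T cell marker sum of non-responder 6 was the highest of its group, 192 CPM, and its melanocytic sum was the lowest, 723 CPM.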

How the results depend on the processing

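For the ligands, Fas and Tnfrsf1b the increases over controls kept their direction under every setting run. On log2(RPKM + 1), which compresses low values, limma gave 1.38 for Fasl and 2.07 for Tnf in all anti-CTLA-4 tumours minus controls. Depth limits Fasl most, with as few as 5 counts in a tumour, and 7 responder libraries carry the lower protein-coding shares. No paired analysis was possible because the replicate numbers only follow the order of the records.

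The number of the 9 genes called changed by over 1.5 times as follows. Responders minus non-responders gave 2 with DESeq2, 5 with limma and 2 with no filter, and 1 to 4 with a tumour left out. Over all genes DESeq2 called 9409 of 18031, limma 7362 of 15286 and the fit with no filter 8360 of 32985. Responders minus stable tumours gave 0 with limma, with only the groups compared, with the covariate and in tumours with a share of at least 60%. With a tumour left out it gave 1 to 2. Those first settings called, in order, 5392 of 15286, 5457 of 16504, 0 of 18031 and 4018 of 17974 genes. Stable tumours minus non-responders gave 1 with no filter (1906 of 32985 over all genes) and 1 to 4 with a tumour left out. Non-responders minus controls gave 3 with only the groups compared (1559 of 16569 over all genes). Smaller changes were 7 to 8 of the 9 in responders minus controls (8 with limma and with the stricter filter), 7 in stable tumours minus controls, 2 in stable tumours minus non-responders with only the groups compared, and 5 to 8 in all anti-CTLA-4 tumours minus controls.

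Among differences not called, Casp8 turned negative with no filter in all anti-CTLA-4 tumours minus controls (-0.0053) and in responders minus controls (-0.043). In non-responders minus controls it was -0.026 with DESeq2, -0.026 with RLE, -0.083 with no filter, -0.028 with only the groups compared, -0.00086 with protein-coding genes only, and -0.067 to 0.080 with a tumour left out. In responders minus stable tumours it was 0.16 with limma. Cflar was 0.0091 in responders minus non-responders and 0.048 in responders minus stable tumours with the covariate, and Tnf in the latter was 0.067. Fasl in responders minus stable tumours was -0.0050 with no filter and -0.098 to 0.14 with a tumour left out. In responders minus non-responders Tnfrsf10b was 0.0069 with limma, 0.11 with the covariate, 0.023 with the stricter filter and -0.20 to 0.094 with a tumour left out. Tnfrsf1a was -0.016 and Tnfsf10 -0.018 with no filter, and Tnfsf10 -0.12 to 0.31 with a tumour left out. Tnfrsf10b in stable tumours minus non-responders was -0.047 to 0.34 with a tumour left out.

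The Cflar to Casp8 ratio on log2(RPKM + 1) passed in non-responders minus controls (-0.25) and stable tumours minus non-responders (-0.25). With a tumour left out it was -0.27 to -0.15 and -0.33 to -0.22 there, -0.46 to -0.31 in responders minus non-responders and -0.54 to -0.42 in stable tumours minus controls. The Tnfrsf1b to Tnfrsf1a ratio was 0.34 to 0.64 in non-responders minus controls, -0.043 to 0.15 in responders minus stable tumours and 0.70 to 1.01 in stable tumours minus non-responders. The Fasl ratio on log2(RPKM + 1) was -0.86 in all anti-CTLA-4 tumours, -0.68 in non-responders, -0.80 in responders and -1.10 in stable tumours, each minus controls and each passing. It passed at 0.30 in responders minus stable tumours and at -0.42 in stable tumours minus non-responders, and did not pass at -0.12 in responders minus non-responders. With a prior count of 0.5 the Fasl ratio was 0.079 in stable tumours minus controls. With a tumour left out it was -0.25 to 0.23, -0.27 to 0.21, -0.13 to 0.35 and -0.38 to 0.099 against controls in the same order, and 0.20 to 0.32 in responders minus stable tumours. The cause of these changes was not tested.

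Over all genes, responders minus non-responders gave 8823 calls, or 1810 with the covariate, and responders minus stable tumours 6891, 0 with the covariate and 4018 at a share of at least 60%. Non-responders minus controls gave 2500 calls, 1559 with only the groups compared, and 1570, 1593, 1634 and 4237 without control 4, control 1, non-responder 4 and non-responder 3. Stable tumours minus non-responders gave 2693, and 1470, 1517 and 1523 without non-responder 2, non-responder 3 and stable tumour 3. The share of calls that were higher moved by over 10 points in non-responders minus controls with limma (1257 of 2124, main 1907 of 2500). It did so with no filter in stable tumours minus non-responders (688 of 1906, main 1276 of 2693) and in all anti-CTLA-4 tumours minus controls (3964 of 9577, main 4987 of 9214). At a share of at least 60% responders minus stable tumours gave 2579 of 4018, main 3689 of 6891.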
